A study of Bos taurus with 12 samples.

Results

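The back-spliced reads of bovine intramuscular preadipocytes were compared between 9 d of differentiation and all earlier days (0, 3 and 6 d). Every circRNA junction of the series was taken: 14070 deposited entries were summed where both ends lay within 5 bp on 1 chromosome and strand, and this left 13244 junctions, 797 of them built from 2 or more entries. Of the 13244 junctions, 11685 were exonic, 1281 were intronic (ciRNAs) and 278 were intergenic, and those in genes belonged to 4485 host genes.

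The cells were isolated from longissimus muscle of newborn Qinchuan calves, grown to near confluence in medium with serum, and sampled before induction (0 d). For 3, 6 and 9 d they received the same medium with dexamethasone, IBMX (an inhibitor of phosphodiesterases) and insulin first, and with insulin alone afterwards. The labels and the study's methods give different doses of dexamethasone and insulin, and they differ in how long RNA was enriched (poly(A) selection in the labels, removal of rRNA in the methods). Each day has 3 libraries. The study describes them as biological replicates and the cells of all days as a common batch, but it is not stated whether the libraries of a day came from separate cultures or animals, so each p-value below measures only the spread between these samples.

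A circRNA forms when the spliceosome joins the end of an exon to the start of the same or an earlier exon, which closes the RNA into a ring without a cap or a poly(A) tail. Rings are poor substrates for exonucleases and often outlive the linear mRNA of the same gene. Back-splicing competes with linear splicing and is favoured by paired repeats in the flanking introns and by RNA-binding proteins such as QKI, while the helicase DHX9 and the editing enzyme ADAR act against such pairing. ciRNAs are intron lariats that were not debranched, and intergenic circRNAs have ends outside annotated genes.

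The deposited count is the number of reads across a junction, and SRPBM is that count multiplied by 1 factor per library that adjusts for its number of reads. By the methods SRPBM is scaled to mapped reads, but the reads that the factor implies are not a fixed share of the mapped reads, and which reads they are is unclear. Back-spliced reads numbered 5358 to 8583 (median 7163) in the 9 earlier libraries, and 9726, 9686 and 10729 in the libraries of 9 d. The reads behind SRPBM (count over SRPBM, rescaled to reads) numbered 53304873 to 77333326 (median 62853705) in the earlier libraries and 59881294, 56752981 and 70190332 at 9 d, so depth overlapped between the groups. At this depth most junctions were thinly covered. Reads in 1 library only were found for 8502 junctions, which held 13.2% of all back-spliced reads, and reads in all 12 libraries for 208 junctions, which held 33.7%. Some abundant junctions were also listed at 0 in part of the libraries: of 37 junctions with a mean of at least 20 reads where they were detected, 14 were at 0 in at least 1 library. Of these 14, 8 were intergenic, 7 of them on chromosome 23. The table does not show whether such zeros are absences or were left by the calling or merging of circRNAs. The labels name no molecular identifiers, so reads are not independent molecules and any floor given here (3 counts over a group) covers counting error only.

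Back-spliced reads rose at 9 d. Their summed level was 93291 to 126548 SRPBM (median 113590) in the earlier libraries, and 162421, 170669 and 152856 SRPBM at 9 d. Every library of 9 d lay above every earlier library, and 6 d held both the lowest and the highest of the earlier ones. The level at 9 d was 1.43 times the geometric mean of the earlier libraries (log2 difference 0.52 ± 0.06 SE, n = 3 and 9; two-sided exact permutation p = 0.00909, the smallest that the 220 choices of 3 libraries can give). Against single days the fold was 1.44 (0 d), 1.41 (3 d) and 1.45 (6 d), where 3 against 3 libraries cannot give a p below 0.10. Per mapped read, in place of the reads behind SRPBM, the fold was 1.32 (exact permutation p = 0.00909, n = 3 and 9). SRPBM is a share of a library's reads, and in bulk samples fewer cells of a type and less RNA per cell cannot be told apart.

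More junctions were detected at 9 d, with more reads per detected junction on average. Detected junctions numbered 1817 to 2619 (median 2361) in the earlier libraries and 2651, 2670 and 2934 at 9 d (fold 1.2; two-sided exact permutation p = 0.00909, n = 3 and 9). The numbers at 9 d lay above all earlier ones, the nearest being those of 3 d. Reads per detected junction were 2.95 to 3.33 (median 3.15) earlier and 3.67, 3.63 and 3.66 at 9 d (fold 1.16; exact permutation p = 0.00909, n = 3 and 9). With every library reduced to the same number of back-spliced reads, 1817 to 2078 junctions (median 1987) were expected earlier and 1948, 1957 and 2033 at 9 d. These overlapped (fold 1.01; exact permutation p = 0.864, n = 3 and 9), so at equal numbers of reads a difference in the variety of junctions, and with it in reads per detected junction, was not detectable.

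**Figure D1:**
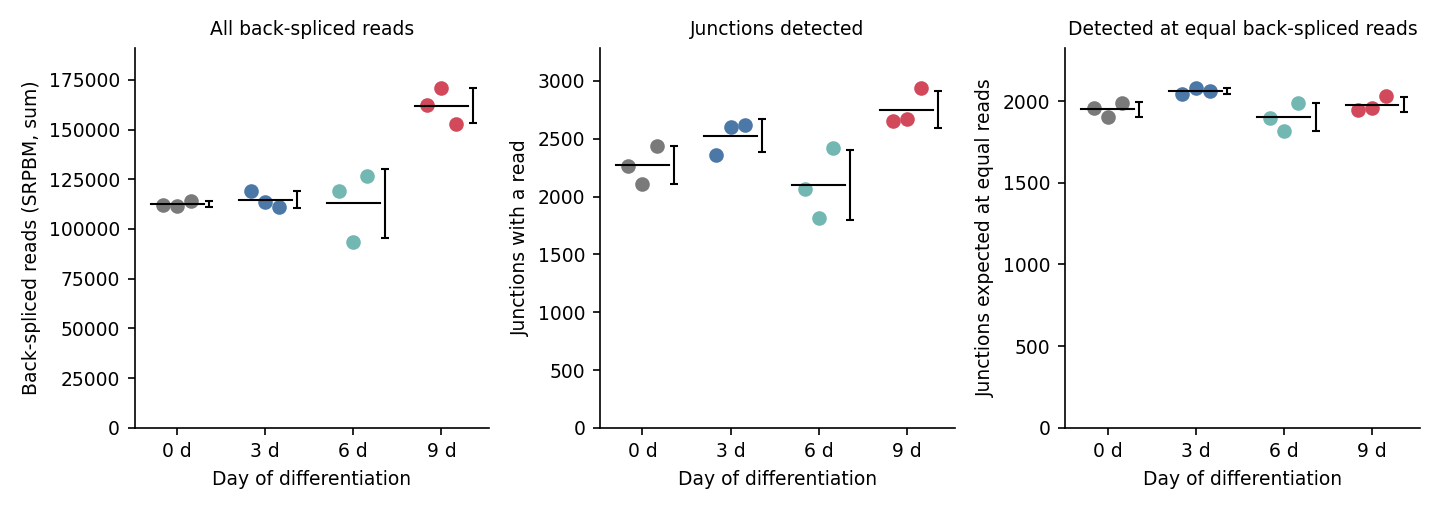
Summed back-spliced reads (SRPBM, left), junctions with at least 1 read (middle) and junctions expected at equal numbers of back-spliced reads (right), by day of differentiation; points are libraries, horizontal lines means and bars 1 SD on either side (n = 3 a day). The libraries of 9 d (152856 to 170669 SRPBM) lie above all earlier libraries on the left and overlap them on the right.

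The rise was found in exonic circRNAs, the rings made of exons, and in intergenic circRNAs. Exonic circRNAs held 76176 to 103901 SRPBM (median 93913) in the earlier libraries and 129373, 137543 and 126100 SRPBM at 9 d. The groups did not overlap, and the fold was 1.40 (two-sided exact permutation p = 0.00909, Benjamini-Hochberg adjusted over 3 types 0.0136, n = 3 and 9). Exonic circRNAs made up 76.7% of the difference of 48616 SRPBM between the mean of 9 d and that of the earlier libraries. ciRNAs held 4283 to 7064 SRPBM (median 4878) earlier and 7014, 7224 and 4858 SRPBM at 9 d. Replicate 3 of 9 d lay near the earlier median, the groups overlapped, and the fold of 1.23 did not pass the test (exact permutation p = 0.127, n = 3 and 9). A difference between ciRNAs and exonic circRNAs in the size of the fold was not tested on its own. As shares of a library's back-spliced reads, exonic circRNAs (exact permutation p = 0.391), ciRNAs (p = 0.2) and intergenic circRNAs (p = 0.136) did not pass the test either, with n = 3 and 9.

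Most of the intergenic reads came from chromosome 23, which carries the bovine major histocompatibility complex. Its 17 intergenic junctions held 9.87% of all back-spliced reads, and the 261 intergenic junctions elsewhere held 3.59%. The region holds families of similar genes, and whether reads of such copies were placed at these junctions is unknown, so the levels given are those of the listed positions. On chromosome 23 the level was 4782 to 15158 SRPBM (median 11270) earlier and 20891, 19470 and 16982 SRPBM at 9 d, above all earlier libraries (fold 1.95; exact permutation p = 0.00909, adjusted 0.0182, n = 3 and 9). The fold depended on the day set beside 9 d: it was 1.59 against 0 d, 3.05 against 3 d, the lowest day, and 1.53 against 6 d. These folds include junctions listed at 0 in part of the libraries, such as circRNA2031 in 2 libraries of 3 d. The doubt on zeros therefore bears on them. For circRNA2033, which had reads in all 12 libraries, the mean at 9 d was 1.70 times the earlier mean. Intergenic circRNAs of the other chromosomes held 2647 to 5665 SRPBM (median 4025) earlier and 5144, 6431 and 4915 SRPBM at 9 d, with overlap (fold 1.34; exact permutation p = 0.0545, n = 3 and 9). Junctions of chromosome 23 within genes gave a fold of 1.14 (exact permutation p = 0.564, n = 3 and 9).

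The fold was above 1 on all 30 chromosomes, with a median of 1.3, and on 15 of them the libraries of 9 d lay above every earlier library. Against 3 d alone it was below 1 on chromosomes 9 (0.971) and 18 (0.89). It ranged from 1.16 on chromosome 18 to 1.60 on chromosome 21, apart from chromosomes 23 (1.85) and X (3.90). Chromosome X stood out through a single junction in TIMP1, without which its fold was 1.48.

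Grouped by the number of exons in the ring, every class of exonic circRNAs had a higher mean level at 9 d. Rings of 1 exon held 8909 to 16212 SRPBM (median 10917) in the earlier libraries and 22261, 23981 and 22966 SRPBM at 9 d, a fold of 1.98 (two-sided exact permutation p = 0.00909, adjusted over 7 classes 0.0106, n = 3 and 9). The highest earlier libraries of this class were those of 6 d and replicate 2 of 0 d. Rings of 2 exons gave a fold of 1.33, of 3 exons 1.35, of 4 exons 1.32, of 6 to 10 exons 1.31 and of over 10 exons 1.36, all without overlap (adjusted exact permutation p = 0.0106, n = 3 and 9). Rings of 5 exons held 8096 to 12363 SRPBM (median 10461) earlier and 13226, 13814 and 11953 SRPBM at 9 d. Replicate 3 of 9 d lay below the highest library of 3 d (fold 1.28; exact permutation p = 0.0182, adjusted 0.0182, n = 3 and 9).

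The distance between single-exon rings and the other classes rested on TIMP1. Single-exon rings made up 9.46 to 16.1% (median 11.8) of the exonic reads in the earlier libraries and 17.2, 17.4 and 18.2% at 9 d, without overlap (exact permutation p = 0.00909, adjusted 0.0318, n = 3 and 9). Without the TIMP1 junction the share was 8.24 to 12.2% (median 11.2) earlier and 10.3, 10.7 and 10.6% at 9 d, and the groups overlapped (fold 0.984; exact permutation p = 0.773, n = 3 and 9). The level of the remaining single-exon rings still rose, by a fold of 1.3 (exact permutation p = 0.00909, n = 3 and 9). Rings of 2 exons took a smaller share of the exonic reads at 9 d, 15.7 to 16.0% against 16.0 to 18.0% earlier (fold 0.947; adjusted exact permutation p = 0.0318, n = 3 and 9). Without the TIMP1 junction their share was 17.1 to 17.3% against 16.5 to 18.0%, with overlap (fold 1.01; exact permutation p = 0.809, n = 3 and 9).

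**Figure D2:**
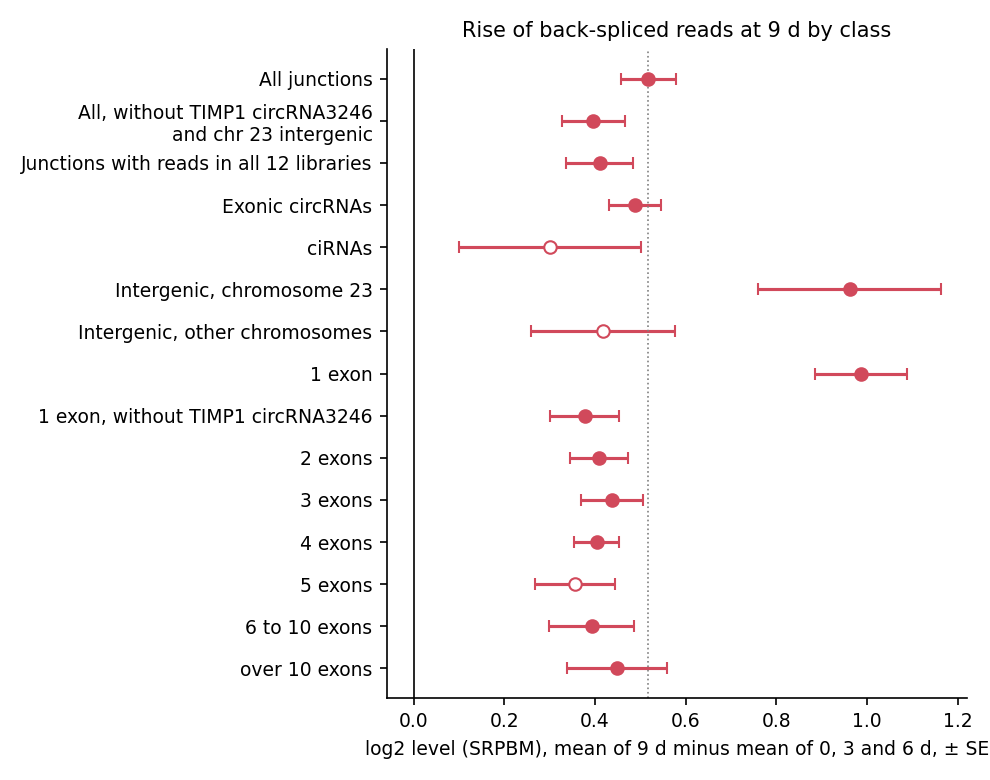
Difference of the mean log2 level (SRPBM) between the 3 libraries of 9 d and the 9 earlier libraries, for all junctions and by class; points are differences, bars 1 SE, filled points mark classes whose libraries did not overlap, and the dotted line is the value of all junctions (0.52). Intergenic circRNAs of chromosome 23 (0.96) and single-exon rings (0.99) lie to the right of the line, and single-exon rings without TIMP1 (0.38) fall among the other exon classes.

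TIMP1 encodes a secreted inhibitor of matrix metalloproteinases, and 99.7% of its back-spliced reads fell on circRNA3246, a ring of 1 exon on chromosome X (85943286 to 85943488, plus strand). This junction had 0, 224 and 0 reads at 0 d, 109, 0 and 0 reads at 3 d, 223, 219 and 260 reads at 6 d, and 593, 585 and 749 reads at 9 d. In SRPBM, 9903, 10308 and 10671 at 9 d lay above the highest earlier library (4183, at 6 d), while 4 libraries of 0 and 3 d were at 0 beside libraries of the same day with more than 100 reads. The table does not show whether the junction was absent there, and the fold, the log2 fold change and the share of the rise given next all include these zeros. The mean at 9 d was 5.22 times the mean of the earlier libraries, with a log2 fold change of 2.64 ± 0.24 SE and an adjusted p of 1.03e-24 by edgeR's quasi-likelihood test (n = 3 and 9). This call was lost among junctions with at least 20 reads, and DESeq2 gave the junction no adjusted p, as detailed below. The log2 fold change averages over the days, so the zeros weigh on it: it was 5.76 without replicate 2 of 0 d and 5.39 without replicate 1 of 3 d, the libraries with reads on those days. Its lowest value with 1 library left out was 2.39. The 5 earlier libraries that listed the junction had 1816 to 4183 SRPBM, so against these alone the fold of means would be below 5.22. By itself circRNA3246 supplied 17.1% of the rise in back-spliced reads.

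TIMP1 mRNA moved the same way. It measured 544 to 953 FPKM (median 761) in the earlier libraries, FPKM being fragments scaled by transcript length and library size, and 2192, 1969 and 2100 FPKM at 9 d. The libraries of 9 d did not overlap the earlier ones (limma, log2 fold change 1.48 ± 0.06 SE, adjusted p = 1.19e-07). Unlike the junction, the mRNA was present in every library of 0 and 3 d, at 544 to 772 FPKM.

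**Figure D3:**
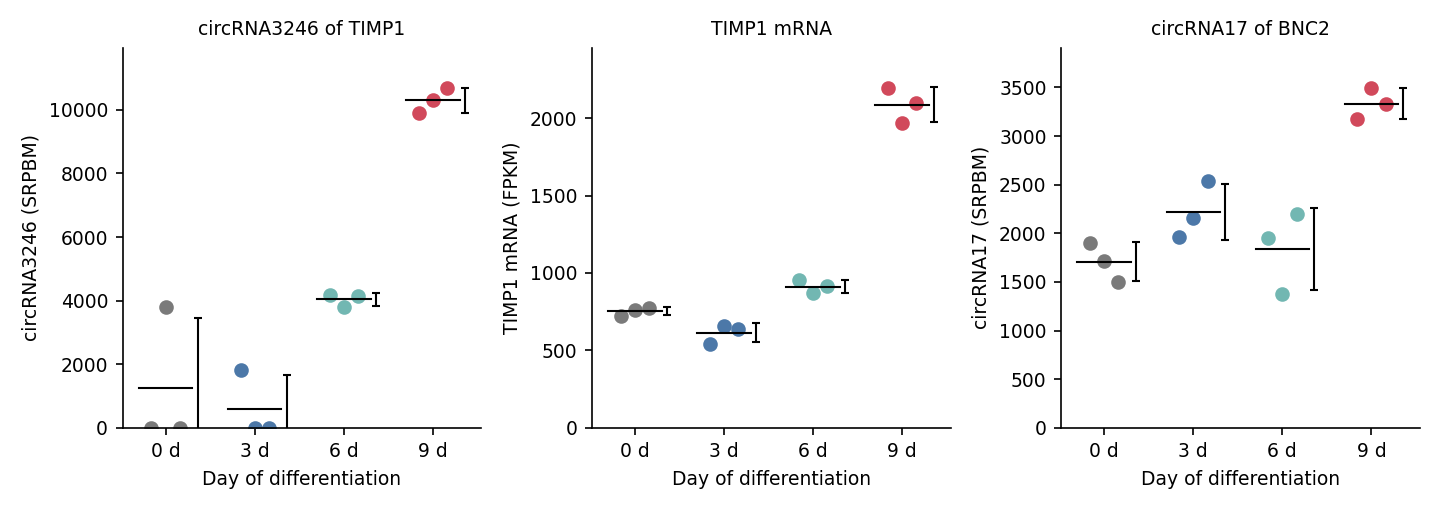
circRNA3246 of TIMP1 (SRPBM), TIMP1 mRNA (FPKM) and circRNA17 of BNC2 (SRPBM) by day; points are libraries, horizontal lines means and bars 1 SD on either side, clipped at 0 (n = 3 a day). All 3 measures are higher in each library of 9 d than in any earlier library, and circRNA3246 is at 0 in 4 libraries of 0 and 3 d.

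The rise did not rest on the most abundant junctions alone. Without circRNA3246 and the intergenic junctions of chromosome 23, back-spliced reads summed to 79292 to 112748 SRPBM (median 101121) earlier and 131627, 140891 and 125202 SRPBM at 9 d. These groups did not overlap (fold 1.32; exact permutation p = 0.00909, n = 3 and 9), and the 208 junctions with reads in all 12 libraries gave a fold of 1.33 (exact permutation p = 0.00909, n = 3 and 9). By abundance over the 12 libraries, junctions of 1 or 2 reads gave a fold of 1.3, of 3 to 9 reads 1.35, of 10 to 49 reads 1.31 and of 50 or more reads 1.56. The last fold was 1.31 without circRNA3246 and the intergenic junctions of chromosome 23. Each of these abundance classes was above all earlier libraries at 9 d (exact permutation p = 0.00909, n = 3 and 9).

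Among the 208 junctions with reads in all 12 libraries, 203 of them exonic, 150 had a higher mean at 9 d, and the median log2 difference was 0.31. In 7 of the 208 (3.37%) every library of 9 d lay above every earlier library, and in 0 every library lay below. Junctions without a read at 9 d are outside this set. The most abundant of the 7 was circRNA2033, an intergenic junction of chromosome 23 (28524822 to 28720812, minus strand), with 4349 to 8337 SRPBM (median 6519) earlier and 10855, 12193 and 9759 SRPBM at 9 d. Its earlier levels were lowest at 3 d and highest at 6 d, and the mean at 9 d was 1.70 times the earlier mean. Next came circRNA17, a single-exon ring of the zinc finger gene BNC2 on chromosome 8, with 1376 to 2534 SRPBM (median 1951) earlier and 3173, 3489 and 3334 SRPBM at 9 d, a fold of 1.73. The other 5 lay in CEMIP (circRNA1146, fold 2.18), AMBRA1 (circRNA1764, 2.54), MED17 (circRNA107, 2.37), ZNF512 (circRNA1080, 2.76) and CTIF (circRNA993, 1.94). No member of the 7 passed edgeR's test on its default scale after adjustment, the adjusted p being 0.328 for circRNA2033 and 0.524 for circRNA17. With library sizes set to the reads behind SRPBM, which leave a general rise in place, edgeR gave circRNA2033 an adjusted p of 0.0227 at a log2 fold change of 0.80, short of the fold threshold, and circRNA17 an adjusted p of 0.213.

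The 10 junctions with the most reads also included circRNA1144 of CEMIP (10 exons, fold of means 1.40), circRNA21 of KDM4C (3 exons, 1.28), circRNA712 of ARID1A (3 exons, 1.24), circRNA190 of PCNX1 (1 exon, 0.933) and circRNA3405 of SACM1L (5 exons, 1.58), the last at 0 in 3 earlier libraries. The libraries of all 5 overlapped, and edgeR called none of them.

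Single junctions were tested with edgeR (quasi-likelihood, 9 d against the mean of the 3 earlier days) where they had at least 5 reads, which 2766 did. Of these, 14 (0.506%) were called at an adjusted p under 0.05 and an absolute log2 fold change over 1, 12 higher (0.434%) and 2 lower at 9 d. edgeR's scaling (TMM) sets a trimmed and weighted mean of the changes to 0, and its factors were 0.842 to 0.872 at 9 d against 0.991 to 1.19 earlier. The median log2 fold change over the 2766 junctions was 0.35 on that scale and 0.56 with library sizes set to the reads behind SRPBM, where 24 junctions (0.868%) were called, 22 higher (0.795%) and 2 lower. On edgeR's own scale the median was 0.19 with a minimum of 20 reads and -0.61 over all 13244 junctions, of which 8460 held 1 or 2 reads and whose fitted values depend on the prior count. DESeq2 called 0 junctions, with 40 at an unadjusted p under 0.05, and edgeR with a minimum of 20 reads called 0 of 745, with 63 at an unadjusted p under 0.05. The call of circRNA3246 was also lost there (log2 fold change 2.58, adjusted p = 0.559), and DESeq2 gave it no adjusted p. A count of junctions whose libraries of 9 d all lay above the earlier ones gave 43 of 2766 (1.55%). The opposite count was 0, but it needs reads in all 9 earlier libraries, which thinly covered junctions lack, so the 2 counts do not compare directions.

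All 14 called junctions were at 0 in at least 1 library, 10 were intergenic (5 on chromosome 23), and 4 rested on reads in 1 of the 3 libraries of 9 d. The libraries did not overlap for 4 of the 14, which were circRNA3246 and the following 3. circRNA2031, intergenic on chromosome 23 (27834527 to 27946272, plus strand), had 1833 to 2051 SRPBM at 0 d, 0, 0 and 504 at 3 d, 1689 to 2482 at 6 d, and 3307, 3172 and 3305 SRPBM at 9 d. It was thus listed lowest at 3 d, where the doubt on zeros applies to 2 libraries, and highest at 9 d (fold of means 2.34; edgeR log2 fold change 1.60 ± 0.29 SE, adjusted p = 2e-05; log2 fold change 3.79 without replicate 3 of 3 d). circRNA7972, intergenic on the same chromosome, was at 0 in 7 of the 9 earlier libraries and gave a fold of means of 6.34 (edgeR log2 fold change 4.55, adjusted p = 6.06e-24). Its log2 fold change was 7.14 without replicate 3 of 3 d and 7.40 without replicate 1 of 6 d, the earlier libraries that held its reads. circRNA6464 of IGF1R, the receptor of insulin-like growth factor 1, had 16, 8 and 19 reads at 9 d against 7 reads in a single earlier library, a fold of means of 21.3 (edgeR adjusted p = 1.49e-07).

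The 2 junctions called lower had no read at 9 d. circRNA8658 of CRISPLD2, which encodes a secreted protein, had 0 to 13 reads (most at 3 d) in the earlier libraries and was at least 5.41-fold lower at 9 d, computed against a floor of 3 counts over the 3 libraries. The intergenic circRNA2029 of chromosome 21 had reads in 4 of the 9 earlier libraries and was at least 5.17-fold lower against the same floor. Both calls were lost when any library of 9 d was left out (edgeR adjusted p up to 0.136 and 1). That of circRNA8658 was also lost when deposited entries were not summed (edgeR log2 fold change -5.08, adjusted p = 0.0959), and that of circRNA2029 also without replicate 3 of 3 d (log2 fold change -3.69) or replicate 2 of 6 d (-3.83). The call of circRNA2036 needs the same care: it had 22, 0 and 121 reads at 0 d, none at 3 and 6 d, and 0, 43 and 0 reads at 9 d, so that the means differed by a fold of only 1.11. Without replicate 2 of 9 d it was no longer called, and its log2 fold change was -2.87 in place of 3.89.

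Primers for 4 circRNAs chosen for qRT-PCR are shown because they are the oligonucleotides with which these rings can be amplified again. Primers are given 5′ to 3′ in lower case.
circRNA2018 forward: ctgagtgtctccactacggc
circRNA2018 reverse: gccatctaagaccactgggg
circRNA2627 forward: gggagacccttgtgtttcgt
circRNA2627 reverse: actcattcttgggtggccg
ciRNA105 forward: acacagtccctgctgttgtt
ciRNA105 reverse: actgctaaggaaacactcaatgc
ciRNA489 forward: agcagtttggaagccccttt
ciRNA489 reverse: gcttgcagagaagagacaagg

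These 4 circRNAs were thinly covered in the libraries, and edgeR called none of them between 9 d and the earlier days. The study used another contrast, each later day against 0 d, and called them differentially expressed. It also reported that their qRT-PCR trends closely matched those of RNA-seq. The 5-exon ring circRNA2627 of MAPK8, which encodes the kinase JNK1, had 0 to 8 reads (median 2) in the earlier libraries and 5, 8 and 11 reads at 9 d, with overlap (fold of means 2.49, edgeR adjusted p = 0.333). The intergenic circRNA2018 of chromosome 16 had 0 to 19 reads (median 5) earlier, most of them at 3 d, and 4, 0 and 4 reads at 9 d (fold of means 0.426, edgeR adjusted p = 0.656). ciRNA105 of FAM110B had 4, 5 and 3 reads at 0 d and none later, and ciRNA489 of GLIS3 had 6, 3 and 4 reads at 3 d and none on other days. At 9 d they were at least 1.31-fold and 1.33-fold lower than the earlier mean, again against 3 counts over the group. With their reads on 1 day only, the contrast used here cannot judge a change confined to that day.

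Reads were next summed over the junctions of each host gene. Of the 1356 hosts with at least 10 reads, edgeR called 10 (0.737%), 8 higher (0.59%) and 2 lower at 9 d. With library sizes from the reads behind SRPBM, 18 hosts (1.33%) were called, 17 higher (1.25%) and 1 lower, 9 of them shared with the 10. The share of calls that were higher went from 80 to 94.4%, and the median log2 fold change of the 1356 hosts from 0.17 to 0.50. Over all 4485 hosts it was -0.07 on edgeR's own scale. DESeq2 called 4 hosts. In 30 hosts (2.21%) the libraries of 9 d lay above all earlier ones. In 0 hosts they lay below, which again needs reads in all 9 earlier libraries. Of the 591 hosts with at least 30 reads, 421 had a higher mean SRPBM at 9 d and 170 a lower mean, and of all 4485 hosts, most of them with few reads, 2166 were higher and 2319 lower. A host with a single read is more likely to have it in the 9 earlier libraries than in those of 9 d, and so to count as lower. The count over all hosts therefore does not compare directions. The 10 hosts with the largest difference supplied 28.4% of the rise, and the first 100 supplied 51.1%.

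Host sums take junctions of both strands, and over all hosts 0.62% of the reads lay on a host's rarer strand. Apart from TIMP1, the called hosts without overlap were COL1A2, THBS1 and CC2D2B. COL1A2, the alpha-2 chain of type I collagen, had 0 to 375 SRPBM (median 157) earlier and 417, 775 and 399 SRPBM at 9 d, spread over 31 junctions, with 10.5% of its reads on the rarer strand. Its levels were lowest at 3 d (edgeR log2 fold change 1.78 ± 0.34 SE, adjusted p = 8.48e-05), and it stayed called under every alternative run. THBS1, the matricellular protein thrombospondin-1, had 0 to 131 SRPBM (median 42.2) earlier and 301, 423 and 171 SRPBM at 9 d (edgeR log2 fold change 2.37 ± 0.47 SE, adjusted p = 0.000195), but its call was lost without replicate 2 of 9 d (log2 fold change 2.11, adjusted p = 0.0521). Of the 85 reads of THBS1, 28 (32.9%) lay on the rarer strand. CC2D2B, a gene of the coiled-coil and C2 domain family, had 17.0 to 255 SRPBM (median 78.6) earlier and 267, 300 and 256 SRPBM at 9 d (edgeR adjusted p = 0.0409), and it was called in only 7 of 17 settings.

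Called hosts whose libraries overlapped included COL1A1, TNC and IGF1R, higher at 9 d, and CRISPLD2 and UTRN, lower. COL1A1, the alpha-1 chain of type I collagen, had 66.6 to 351 SRPBM (median 137) earlier and 284, 564 and 598 SRPBM at 9 d (edgeR log2 fold change 1.36 ± 0.33 SE, adjusted p = 0.00809). TNC, the matrix glycoprotein tenascin-C, had 0 to 255 SRPBM (median 126) earlier and 184, 247 and 442 SRPBM at 9 d (edgeR log2 fold change 2.23 ± 0.47 SE, adjusted p = 0.000474). The low end of both genes was again at 3 d, and 21.7% of the reads of COL1A1 and 33.9% of those of TNC lay on the rarer strand. No call was tested on 1 strand alone. CRISPLD2 had no read at 9 d and was at least 6.08-fold lower, again against 3 counts over the group, and UTRN, which encodes the dystrophin relative utrophin, had 17.0 to 194 SRPBM earlier and 17, 53 and 0 SRPBM at 9 d. UTRN was not called on the SRPBM scale (edgeR adjusted p = 0.0794) and was called in only 6 of 17 settings. Without replicate 3 of 9 d the calls of COL1A1 (edgeR log2 fold change 1.13, adjusted p = 0.273) and TNC (1.73, adjusted p = 0.237) were lost, and that of COL1A1 also without replicate 2 of 9 d (1.33, adjusted p = 0.0641). COL1A1 was also not called by DESeq2 (adjusted p = 0.183) or by edgeR among hosts with at least 30 reads (adjusted p = 0.0886), and IGF1R was not called by DESeq2 (adjusted p = 0.622).

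Of the 10 hosts with the most back-spliced reads, edgeR called only TIMP1 (fold of means 5.2, adjusted p = 4.93e-34). That call was lost among hosts with at least 30 reads (edgeR log2 fold change 2.51, adjusted p = 0.299), and DESeq2 gave TIMP1 no adjusted p. BNC2 had 1376 to 2573 SRPBM (median 1989) earlier and 3223, 3542 and 3362 SRPBM at 9 d, without overlap (fold 1.72), and BRWD1 also did not overlap (fold 1.45). CEMIP, which takes part in hyaluronan breakdown, had 1683 to 4173 SRPBM (median 2570) earlier and 4041, 5004 and 4174 SRPBM at 9 d, with overlap (fold 1.63). GLIS3, a zinc finger transcription factor, had 730 to 1611 SRPBM (median 1254) earlier and 1119, 1304 and 1026 SRPBM at 9 d (fold 0.987). The other 5 overlapped as well: ARID1A, a subunit of the SWI/SNF chromatin remodeller, gave 1.24, the histone demethylase gene KDM4C 1.26, PCNX1 0.993, COQ3 1.06 and SACM1L 1.55. The 10 hosts with the largest difference added PHKB, a subunit gene of phosphorylase kinase (fold 1.58), and COL5A1, a chain of type V collagen (1.46), to hosts already named, both with overlap and not called by edgeR.

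To set circRNAs beside the mRNAs of the same genes, 4083 hosts with a matching mRNA of at least 0.1 FPKM were used, which held 76736 back-spliced reads (92.7% of those in host genes). Each host's mRNA was divided by its mean over the 12 libraries and weighted by its back-spliced reads. The weighted mRNA level was 0.954 to 1.11 (median 0.972) in the earlier libraries, highest at 0 d, and 1.01, 0.963 and 1.00 at 9 d. The groups overlapped (fold 0.992; two-sided exact permutation p = 0.845, n = 3 and 9). The back-spliced reads of the same hosts, in the same unit, were 0.735 to 1.00 (median 0.906) earlier and 1.27, 1.34 and 1.22 at 9 d (fold 1.41; exact permutation p = 0.00909, n = 3 and 9).

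Back-spliced reads per unit of host mRNA rose. The ratio was 0.771 to 1.05 (median 0.946) earlier and 1.26, 1.39 and 1.21 at 9 d, without overlap (fold 1.42; exact permutation p = 0.00909, n = 3 and 9). By day the fold was 1.54 against 0 d, 1.32 against 3 d and 1.41 against 6 d. FPKM depend on which mRNAs dominate a library: with FPKM rescaled by their median ratio the weighted mRNA level gave a fold of 1.08 (exact permutation p = 0.00909, n = 3 and 9), and the ratio a fold of 1.31 (exact permutation p = 0.00909, n = 3 and 9). Without TIMP1 the ratio gave 1.40. All these ratios take back-spliced reads on the SRPBM scale. They are not given per mapped read, where the total of back-spliced reads rose by a smaller fold.

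**Figure D4:**
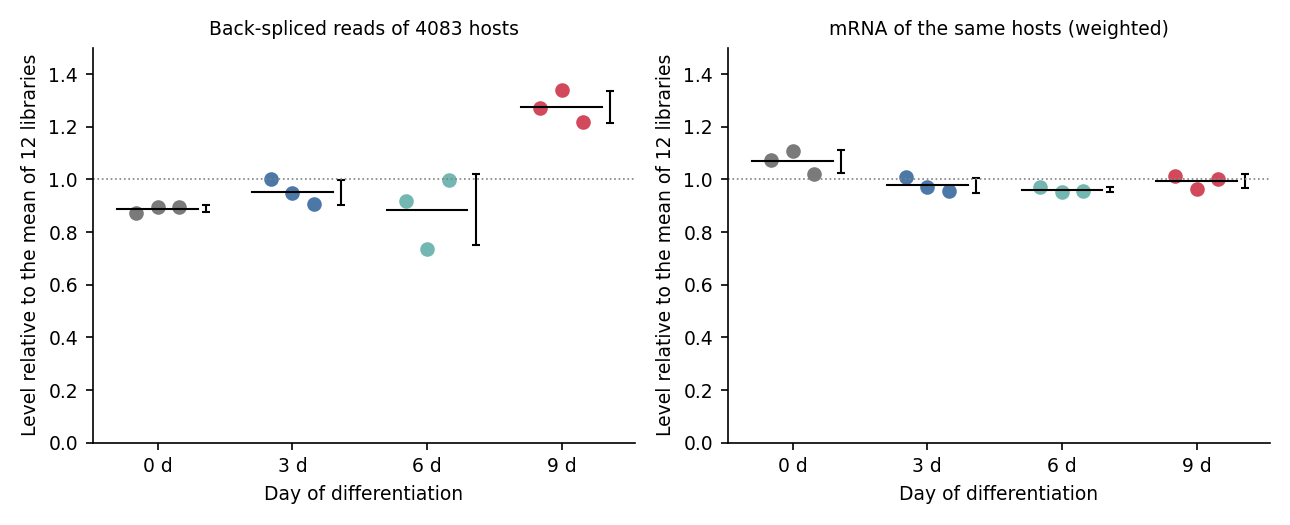
Back-spliced reads of 4083 host genes (left) and the mRNA of the same hosts weighted by their back-spliced reads (right), each relative to its mean over the 12 libraries, by day; points are libraries, horizontal lines means and bars 1 SD on either side (n = 3 a day). Back-spliced reads at 9 d lie at 1.22 to 1.34, above all earlier libraries, and the mRNA at 9 d (0.963 to 1.01) overlaps the earlier days.

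Hosts were then grouped by the test of their mRNA, and differences between these groups were not tested. limma on log2(FPKM + 0.1) called 951 of 15401 mRNAs (6.17%), 505 higher (3.28%) and 446 lower at 9 d, and 195 of the 4083 host mRNAs (4.78%), 104 higher and 91 lower. With a pseudocount of 1 in place of 0.1 it called 464 mRNAs, 273 higher and 191 lower, and the groups that follow use the calls at 0.1. The 104 hosts with a higher mRNA held 2566 to 8655 SRPBM (median 5536) earlier and 15865, 17867 and 17054 SRPBM at 9 d, a fold of 3.23 (exact permutation p = 0.00909, n = 3 and 9). Without TIMP1 that fold was 1.84 (exact permutation p = 0.00909, n = 3 and 9), and it depended on the day, with 1.32 against 0 d, 2.63 against 3 d and 1.81 against 6 d. The 91 hosts with a lower mRNA held 609 to 1450 SRPBM (median 1182) earlier and 768, 846 and 898 SRPBM at 9 d, with overlap (fold 0.755; exact permutation p = 0.127, n = 3 and 9). The 3888 hosts whose mRNA was not called held 66652 to 95121 SRPBM (median 83313) earlier and 111253, 115818 and 104388 SRPBM at 9 d. The rise was thus also present where the mRNA was not called (fold 1.31; exact permutation p = 0.00909, n = 3 and 9). These hosts include some whose mRNA passed the adjusted p but not the fold threshold, such as COL1A1. On the deposited scale the median log2 fold change of all mRNAs was -0.12, and after rescaling it was -0.00, where 65.7% of the calls were higher in place of 53.1%.

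Hosts were also divided into 4 groups of nearly equal size by their mRNA level. From the hosts with the least mRNA to those with the most, the fold in back-spliced reads was 1.35, 1.32, 1.31 and 1.55 (each with an exact permutation p of 0.00909, n = 3 and 9), and the last was 1.33 without TIMP1.

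Among single hosts the 2 measures were loosely related. In 540 hosts with at least 30 back-spliced reads and an mRNA, the median log2 ratio of mean SRPBM was 0.38 and the median log2 fold change of the mRNA was -0.05. The change in back-spliced reads exceeded that of the mRNA in 386 of the 538 hosts with reads in both groups (71.7%). By the call of the mRNA, it did so in 379 of 522 hosts not called (72.6%) and 5 of 5 called lower. Among hosts whose mRNA was called higher it did so in only 2 of 11 (18.2%). This grouping itself uses the change of the mRNA. The 2 changes are also averaged differently, as log2 of mean SRPBM and as log2 FPKM averaged over days. The counts of hosts therefore compare unlike measures. Across these hosts, which are not independent replicates, Pearson's r was 0.267 and Spearman's rho 0.230. COL1A2 mRNA went from 9782 ± 3991 FPKM (SD, n = 9) to 14315 ± 1216 FPKM (SD, n = 3), a log2 fold change of 0.68 by limma against 1.78 for its back-spliced reads by edgeR. For THBS1 the mRNA changed by 1.73 and for TNC by 2.15 (limma, log2), although both overlapped the earlier libraries and were lower at 9 d than at 6 d. THBS1 mRNA had 12021 to 13239 FPKM at 9 d, 13981 to 14437 FPKM at 6 d and 964 to 1124 FPKM at 3 d, and TNC mRNA had 4510 to 5088, 5131 to 5663 and 54.1 to 64.0 FPKM, so the low values of 3 d weigh on both averages. IGF1R mRNA changed by 0.22 and BNC2 mRNA by -0.38 (limma, log2), and neither was called. CRISPLD2 mRNA was lower at 9 d along with its back-spliced reads, at 52.7 to 57.0 FPKM against 75.5 to 641 FPKM (median 254) earlier (limma, log2 fold change -2.06 ± 0.05 SE, adjusted p = 1.32e-08).

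**Figure D5:**
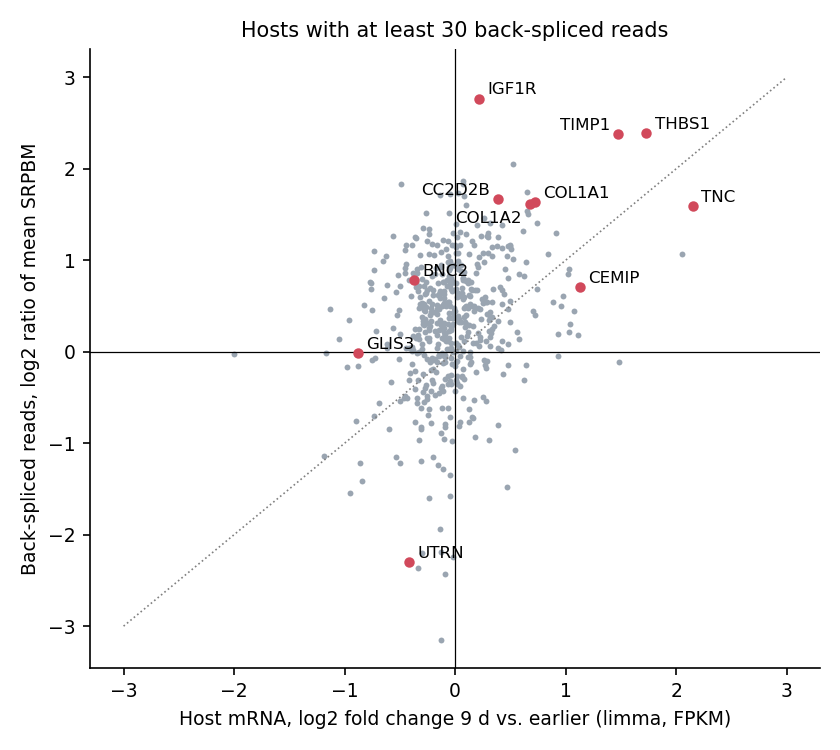
Log2 ratio of mean SRPBM, 9 d over earlier libraries, against the log2 fold change of the host mRNA (limma, FPKM) for hosts with at least 30 back-spliced reads; each point is a gene, red points are named hosts, and the dotted line marks equal change. Most hosts (386 of 538) lie above the dotted line, and TNC and CEMIP are among those below it. The axes average differently, as mean SRPBM and as log2 FPKM averaged over days. The low mRNA of TNC and CEMIP at 3 d weighs on the latter, so their place below the line may depend on the measure.

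The mRNAs of proteins that act on circRNAs were read from fixed lists. Of 25 factors in splicing and RNA binding that can affect circRNA formation, 22 were tested and 0 were called by limma. Of the 22, 21 had a log2 fold change below 0, with a median of -0.33 beside -0.12 over all mRNAs, and 11 passed the adjusted p alone, all of them lower. Over all 15401 mRNAs, 9661 were below 0 and 4309 passed the adjusted p alone. After rescaling, 18 of the 22 were below 0, with a median of -0.23, beside 7708 of 15362 mRNAs. Whether the list differs from other mRNAs was not tested. HNRNPL, a nuclear RNA-binding protein that regulates splicing, had 39.4 ± 1.92 FPKM (SD, n = 9) earlier and 27.3 ± 1.1 FPKM (SD, n = 3) at 9 d, without overlap (limma, log2 fold change -0.53, adjusted p = 2.25e-05). QKI had 59.2 to 347 FPKM (median 257) earlier and 242, 237 and 147 FPKM at 9 d, with overlap. MBNL2, the most abundant of the list, was highest at 6 d.

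The factors that limit circRNAs were DHX9, ADAR and ADARB1, of which limma called 0. DHX9 had 62.5 to 87.5 FPKM (median 71.9) earlier and 54.3, 48.7 and 53.6 FPKM at 9 d, below every earlier library (limma, log2 fold change -0.47 ± 0.09 SE, adjusted p = 0.00349). After rescaling its log2 fold change was -0.34. ADAR had 68.7 to 81.4 FPKM (median 74.4) earlier and 72.2, 68.1 and 71.4 FPKM at 9 d, with overlap. Of 11 factors in the turnover of circRNAs and lariats, 9 were tested and 0 were called. Of the 9, 3 passed the adjusted p alone, all with overlap, beside 4309 of all 15401 mRNAs. The lariat debranching enzyme DBR1 was higher (limma, log2 fold change 0.29 ± 0.06 SE, adjusted p = 0.00618). UPF1 (limma, -0.29, adjusted p = 0.00099) and AGO2 (-0.21, adjusted p = 0.0188) were lower. After rescaling the log2 fold changes were 0.41 (DBR1), -0.17 (UPF1) and -0.08 (AGO2). The median of the 9 was -0.08 before rescaling and 0.05 after it. Of 7 factors in export and m6A marking, 6 were tested and 0 were called. On the deposited scale their summed level at 9 d (319, 375 and 410 FPKM) lay narrowly below the earlier libraries (414 to 532, median 444 FPKM). Most of the sum was DDX39A and XPO4, which both overlapped the earlier libraries, and the sum is not given after rescaling. What these mRNAs contribute to the rise was not tested.

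Cell division dilutes stable RNAs, and cell cycle genes were listed for that reason. All 16 were tested and 0 were called by limma, with a median log2 fold change of -0.33. The proliferation marker MKI67 had 12.1 ± 1.75 FPKM (SD, n = 9) earlier and 7.17 ± 0.125 FPKM (SD, n = 3) at 9 d (limma, log2 fold change -0.74, adjusted p = 4.87e-05), while the replication helicase subunit MCM3 had 11.8 ± 3.78 and 20.2 ± 0.0757 FPKM (limma, log2 fold change 0.84, adjusted p = 2.73e-05). In all, 10 members passed the adjusted p alone, 7 lower and 3 (MCM3, MCM5 and TYMS) higher, beside 4309 of all 15401 mRNAs. The summed level of the list overlapped between the groups (202 to 283, median 217, against 223, 232 and 234 FPKM). The part of cell division in the rise was not tested.

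Cell type markers were read the same way. Of 5 fibroblast and preadipocyte markers, 4 were tested and 0 were called (median log2 fold change 0.65), DCN being the most abundant at a mean of 32077 FPKM and DLK1 being at 0 in 7 libraries. Their summed level was 12836 to 45962 FPKM (median 35297) earlier and 48643, 48244 and 49344 FPKM at 9 d, above all earlier libraries. Most of that sum was DCN, at a mean of 44464 FPKM at 9 d (limma, log2 fold change 0.91, and 1.03 after rescaling). COL1A1 mRNA had 877 to 3159 FPKM earlier and 3259 to 3615 FPKM at 9 d, without overlap (limma, log2 fold change 0.72, adjusted p = 2.82e-06). LUM overlapped, and PDGFRA went the other way (limma, log2 fold change -0.51, adjusted p = 1.98e-05), with overlap and its highest levels at 3 d. Of 6 adipocyte markers tested, limma called 2, beside 6.17% of all mRNAs, namely LEP, the hormone leptin, higher (16.6 to 25.3 FPKM at 9 d, 0 to 9.97 FPKM earlier) and FABP4, a fatty acid carrier, lower. FABP4 had 7.59 to 10.8 FPKM at 9 d, which is above 0 d (3.02 to 3.52 FPKM) and below 3 and 6 d. The adipocyte list summed to 31.7 to 40.3 FPKM at 9 d against 10.1 to 108 FPKM (median 38.6) earlier, with overlap, and PLIN1 and PPARG are not in the mRNA table. Of 6 skeletal muscle markers, limma called 2 lower, beside the same 6.17%, MYOD1 (log2 fold change -1.04) and MYOG (-1.02), both short of the fold threshold after rescaling (-0.91 and -0.90). MYOG was lower at 9 d than in all earlier libraries, but MYOD1 had 43.2 to 63.8 FPKM at 9 d and 34.0 to 57.3 FPKM at 6 d, so its difference rests on 0 and 3 d (107 to 303 FPKM). The summed muscle level overlapped (258 to 922, median 391, against 322, 288 and 315 FPKM), with DES the most abundant. The 4 endothelial markers summed to 1.58 to 2.56 FPKM earlier and 2.06 to 2.64 FPKM at 9 d, nearly all of it VWF, and the 4 blood and immune markers to 1.09 to 3.69 FPKM earlier and 2.2 to 3.3 FPKM at 9 d, with PTPRC at 0 in all 12 libraries. Any part of these markers in the rise was not tested.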

How the data were processed

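The circRNA table holds, per the deposited column headers, a count of junction reads for each of 12 libraries and SRPBM, a signal that the authors derived as the count times 1 factor per library. The mRNA table holds FPKM that the authors computed. By the study's methods reads were mapped to ARS-UCD1.2 and circRNAs were called with CIRCExplorer2 and CIRI. The submitters' processing notes list the mouse build mm8 and Bowtie 0.12.2, HISAT2 2.0 and StringTie 1.3.0, so the build behind the printed positions is uncertain. The 36 per-sample columns of the lncRNA and miRNA tables, in all, were not used.

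A summed junction took its type, host and exon number from the entry with the most reads. Of 4485 hosts, 4146 matched an mRNA by symbol, 3 by a synonym and 336 not at all. A RefSeq table of another assembly gave names and chromosome numbers only. Levels were compared by exact permutation tests on means of log2 levels. Counts went into edgeR 4.0.16 (TMM, glmQLFit), and log2(FPKM + 0.1) of mRNAs with a mean of at least 0.1 FPKM into limma 3.58.1 with a trend, each with a mean for each day and 9 d set against the mean of 0, 3 and 6 d. Calls need a Benjamini-Hochberg adjusted p under 0.05 and an absolute log2 fold change over 1. Folds of levels are ratios of geometric means, and those of named junctions and hosts are ratios of mean SRPBM. edgeR's log2 fold changes depend on the prior count where days hold no reads.

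Alternatives were DESeq2 1.42.0, other library sizes, filters and pseudocounts, entries not summed, a block for the replicate number, and each library left out in turn. Values without circRNA3246 or TIMP1, without the intergenic circRNAs of chromosome 23 and without junctions at 0 in some libraries, and totals of junctions with reads in all 12 libraries, were chosen after seeing the data. The procedure was tested on simulated data. The simulated junction counts shared 1 spread and did not model abundant junctions at 0 in part of the libraries of a day. They therefore say nothing on calls that involve such zeros. By rule the text names the 10 junctions and 10 hosts with the most reads, the 10 hosts with the largest difference, called features without overlap, the circRNAs measured by qRT-PCR and members of the lists. The 7 junctions above all earlier libraries, the called hosts with overlap and circRNA2036, circRNA8658, circRNA2029, circRNA3366 and circRNA8721 were named after their values were seen. The comparison, its members and the lists were chosen with earlier results of these data known. The software was R 4.3.3, Python 3.11.15, SciPy 1.17.1, NumPy 2.4.6, Matplotlib 3.10.9 and pandas 2.3.3.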

Additional observations from a re-analysis of the deposited data

Results flagged for a closer look

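In 5 of 22 measures, replicate 2 of 6 d lay apart from the other 8 earlier libraries, on the low side. Its gap to the nearest library, as a fraction of the range of the 9, was 0.532 for all back-spliced reads, 0.51 for exonic circRNAs and 0.594 for rings of 6 to 10 exons. It was 0.516 for the back-spliced reads of hosts with a matching mRNA and 0.564 for the same hosts without TIMP1. Chance flags about 1 in 20 groups, and the 22 measures share reads with each other, so the 5 are not separate observations. Without this library the total of back-spliced reads gave a fold of 1.40 (exact permutation p = 0.0121, the smallest that 8 earlier libraries allow). The cause was not tested.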

How the results depend on the processing

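The total of back-spliced reads kept its direction and stayed under 0.05 under every alternative, from 1.16 (TMM) to 1.47 (without replicate 3 of 9 d). The value of 1.16 is the fold of SRPBM totals multiplied by edgeR's TMM factors, which were 0.842 to 0.872 at 9 d and 0.991 to 1.19 earlier. It is not a total divided by TMM-scaled library sizes, which would give a larger fold than this product. With a replicate block (labels exchanged within replicate numbers only) its fold was 1.43 and the exact permutation p was 0.0312, the smallest the 64 arrangements can give. The numbers do not pair libraries across days: the mean correlation of residuals was 0.00654 for libraries of the same number and -0.00326 for different numbers.

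Detected junctions lost their difference at equal numbers of reads (1.01). Dividing by all back-spliced reads, themselves 1.43 times higher, turns any class that rose by less, and so these reversals show no fall of the classes. As such shares the folds reversed for exonic circRNAs (0.979), ciRNAs (0.861), intergenic circRNAs outside chromosome 23 (0.933), and rings of 2 (0.927), 3 (0.946), 4 (0.924), 5 (0.894), 6 to 10 (0.917) and over 10 exons (0.953). Shares of intergenic circRNAs (1.21) and of those on chromosome 23 (1.36) no longer passed, nor did raw counts for rings of 5 (1.24), 6 to 10 (1.28) and over 10 exons (1.33). Without circRNA3246 the shares of single-exon rings (0.984) and of rings of 2 exons (1.01) reversed. Leaving out 1 library, rings of 5 exons gave 1.24 to 1.33 and did not pass without replicate 1 or 2 of 9 d. Intergenic circRNAs outside chromosome 23 gave 1.23 to 1.41 and passed without replicate 1 of 3 d (1.39) or replicate 1 of 6 d (1.37). Weighted host mRNA reversed with rescaled FPKM (1.08), and gave 0.982 to 1.01 with 1 library left out, above 1 without replicate 1 or 2 of 0 d or replicate 2 of 9 d.

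Junction calls numbered 24 with library sizes from the reads behind SRPBM, 0 by DESeq2, 0 with a minimum of 20 reads and 9 to 17 with 1 library left out, 9 being without replicate 3 of 9 d. Host calls numbered 18 on the SRPBM scale, 4 by DESeq2, 5 with a minimum of 30 reads and 6 to 13 with 1 library left out, 6 being without replicate 3 of 9 d. mRNA calls numbered 464 with a pseudocount of 1. The log2 fold changes of circRNA2036 (-2.87 to 4.54), circRNA3366 (-2.14 to 5.84) and circRNA8721 (-2.37 to 4.73) reversed without replicate 2, 3 and 1 of 9 d. The causes were not tested. At this depth 208 of 13244 junctions held reads in all 12 libraries, which limits tests of single junctions.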
